A study of Mus musculus and Homo sapiens with 32 samples.

Results

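The comparison sets m6A-CT peaks of E14 mouse embryonic stem cells against those of mouse embryonic fibroblasts (MEF), both from 100000 nuclei. E14 had 8052 peaks and MEF had 38205, together 46257 of the 67007 peaks in the 5 mouse MACS2 lists of the series. In m6A-CT a protein A/G fusion of Tn5 transposase, guided by an antibody to N6-methyladenosine (m6A), cuts cDNA paired with RNA inside permeabilised nuclei, so a peak is a genome interval with many such cuts. Per the labels, the stem cells are the line E14 and the fibroblasts carry the line name CF1. Each cell type has 2 m6A-CT libraries made with the Synaptic Systems antibody and 2 input libraries tagmented without an antibody, 8 of the 32 samples in all. No deletion or drug treatment is given for either cell type. Nuclei were released in 0.020% Triton X-100 for 1 min for E14 and in 0.2% NP-40 for 5 min for MEF, so cell type and nuclear preparation cannot be told apart. One list stands for each cell type, filed under its replicate 1. Whether it pools the replicates, and whether these are separate cultures, is not stated, and sequencing depth is unknown. For that reason no comparison below has a replicate check or a p-value, and the Wilson 95% intervals given with shares cover counting error only.

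The m6A mark is placed on nascent RNA by the METTL3 and METTL14 writer complex and is read by YTH domain proteins, which speed the decay of many marked transcripts. It is known to concentrate in long internal exons and in last exons, around stop codons, and to be sparse close to splice junctions. In embryonic stem cells, transcripts of pluripotency factors carry the mark, and loss of the writer delays exit from naive pluripotency. Fibroblasts are mesenchymal cells that secrete collagens, fibronectin and other matrix proteins, and they respond to serum with immediate early genes.

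Peaks were named by exon blocks that the series lists for C57BL/6 stem cells, wild-type and Mettl3 knockout, profiled with another antibody (MilliporeSigma). These blocks cover 11080 genes. A gene silent in stem cells may have no block, and Col1a1, Col1a2, Col3a1, Thy1 and Prrx1 have none. Gene names could be given to 65.9% of E14 peaks and 73.5% of MEF peaks. Peaks carry no strand, so overlapping antisense partners cannot be told apart. A gene with no peak may be unmethylated or little expressed, and these cannot be told apart either.

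Most nameable markers of each labelled cell type had a peak in the list of that cell type. Over all nameable genes, 19% had an E14 peak and 39.7% had a MEF peak. Among 12 embryonic stem cell markers, 9 had an E14 peak and 1, Klf4, had a MEF peak. Of 14 fibroblast markers only 7 could be named. Of these 7, 1 (Fn1) had an E14 peak and 5 (Col5a1, Col6a3, Fn1, Fbn1 and Pdgfra) had a MEF peak. Among 6 nameable markers of endothelial, blood and neural cells, 1 (Pecam1) had an E14 peak and none had a MEF peak. Pou5f1, Dppa5a, Epcam, Vim and Twist1 had no peak in either list. Their listed exons came to 250, 148, 837, 100 and 950 bp in that order.

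The 2 lists overlapped asymmetrically. At 1 bp of overlap, 4501 E14 peaks (55.9%, 95% interval 54.8 to 57%) met a MEF peak. In the other direction 4243 MEF peaks (11.1%, 10.8 to 11.4%) met an E14 peak. The MEF list held more peaks and covered 16.1 Mb, against 3.1 Mb for E14, so the comparison was repeated with the 8052 MEF peaks of highest −log10 q, a list cut at a −log10 q of 68.7. At equal numbers, 26.7% of E14 peaks (25.8 to 27.7%) met a MEF peak and 23.7% of MEF peaks (22.8 to 24.7%) met an E14 peak. At equal numbers most peaks of each list thus met no peak of the other, and the MEF list still covered 5.24 Mb.

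Peak form also differed. E14 peaks had a median length of 216 bp and MEF peaks one of 267 bp. Peaks of exactly 100 bp, the shortest length, made up 9.92% of the E14 list and 1.33% of the MEF list. The authors' fold enrichment, a value of each peak within its own list, had a median of 6.33 in E14 and 4.44 in MEF. E14 peaks that met a MEF peak had a median length of 250 bp, against 183 bp for those that met none, and 3.2% of them were 100 bp long, against 18.4%. MEF peaks that met an E14 peak had a median length of 358 bp, against 261 bp for those that met none.

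By rank, the overlap of E14 peaks was highest in the top 500 and nearly level after it, and that of MEF peaks declined throughout. Of the top 500 E14 peaks by −log10 q, 70.8% (66.7 to 74.6%) met some MEF peak, and the share was 60% in the top 1000, 58.1% in the top 2000, 58.4% in the top 4000 and 55.9% in the whole list. Of the top 500 MEF peaks, 54.6% (50.2 to 58.9%) met some E14 peak. That share was 48.7% in the top 1000, 38.9% in the top 2000, 31.2% in the top 4000 and 23.7% in the top 8052. Between the 2 top 500 lists themselves, 14.8% of E14 peaks met a MEF peak.

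**Figure D1:**
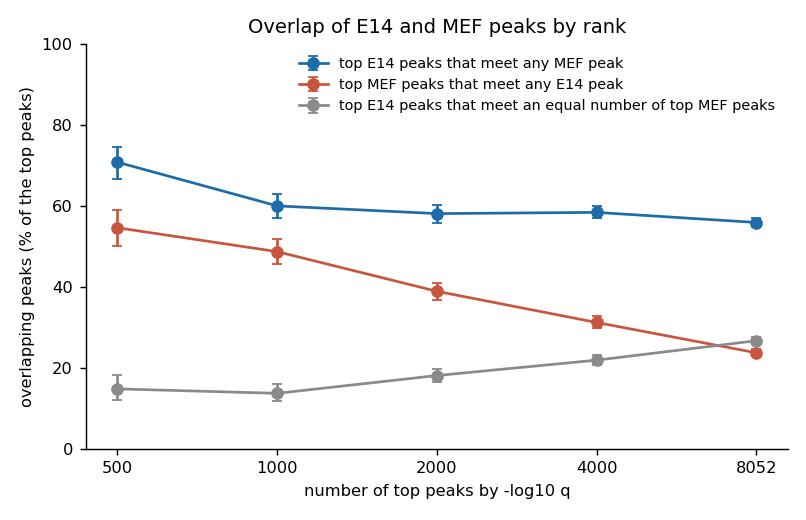
Share of top peaks that overlap a peak of the other list by at least 1 bp (vertical axis, % of the top peaks) against the number of top peaks by −log10 q (horizontal axis, steps not to scale), with Wilson 95% intervals as bars. The E14 share stays between 55.9% and 70.8%, the MEF share declines to 23.7%, and top E14 peaks meet equally many top MEF peaks in 13.7% to 26.7% of cases.

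Summit distances were taken only between overlapping peaks. Overlap limits such distances in advance, and no expected distance was set beside them. The median distance between the summit of an E14 peak and that of the nearest overlapping MEF peak was 36 bp, with quartiles of 3 and 137 bp. In 55.3% of the 4501 cases it was at most 50 bp. E14 peaks lay wholly inside a MEF peak in 3515 of the overlapping pairs. Single MEF peaks could take in several E14 peaks: 288 met more than 1. The extreme was mm9 chr15:76001563-76012401, a MEF peak of 10839 bp in Plec, which encodes the cytoskeletal linker plectin, and it met 8 E14 peaks.

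Counted by gene, 420 genes had a peak in E14 only, which is 3.79% of the nameable genes. Both lists had a peak in 1680 genes (15.2%), and 2724 genes (24.6%) had one in MEF only. At equal numbers of peaks the split was 1288 genes in E14 only (11.6%), 812 in both (7.33%) and 604 in MEF only (5.45%). The 8052 top MEF peaks by −log10 q thus fell in 1416 named genes, against 2100 for the 8052 E14 peaks. With top peaks by fold the split was 1098 genes in E14 only, 1002 in both and 889 in MEF only. Genes without a block in the stem cell tables could not be counted for MEF. A single peak was all that 52.2% of E14 genes had, against 26.2% of MEF genes and 39.8% of MEF genes at equal numbers. The 100 genes with the most peaks held 26.2% of gene-assigned peaks in E14, 14.9% in MEF and 38.5% in MEF at equal numbers. Among the 1680 genes with peaks in both lists, 7.2% had more peaks in E14 and 77.9% had more in MEF. Among the 812 of the equal lists, 27.8% had more in E14 and 49.6% had more in MEF.

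Genes with many E14 peaks and no MEF peak were led by Ttn, which encodes the giant sarcomere protein titin and had 28 E14 peaks. Ttn had no peak in the list of expanded potential stem cells (EPSC), 3 in E14 at 25000 nuclei and 5 in E14 at 5000. Sorl1, a sorting receptor, had 14 E14 peaks, and Tenm3, a teneurin adhesion protein, had 12. Lama1, the laminin alpha 1 chain of embryonic basement membranes, also had 12. These 3 genes had 16, 6 and 11 EPSC peaks in the same order, so the second stem cell list held them too. Rian, an imprinted noncoding RNA, had 9 E14 peaks, and its peak of highest fold, 35.9, lay at mm9 chr12:110884004-110885045. Ubxn7, an adaptor of the p97 ATPase, had 8. Cdh1 (E-cadherin) and Kit (the stem cell factor receptor) had 6 each, and EPSC had 13 and 8. In the MeTPeak lists of the C57BL/6 stem cells, Ttn had 54 peaks in wild type and 110 in the Mettl3 knockout. The knockout list also had more peaks in Sorl1 (3 against 2), Tenm3 (17 against 4), Lama1 (15 against 8), Rian (5 against 1) and Ubxn7 (11 against 1). Cdh1 and Kit had 1 in each. Counts of MeTPeak peaks did not follow those of E14 peaks: Macf1 and Huwe1, with 57 and 28 E14 peaks, had 1 in each genotype. Whether m6A in these genes differed between the genotypes was not tested.

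MEF-only genes with the most peaks encode large proteins of many kinds. Syne2 (nesprin-2, which links the nucleus to the cytoskeleton) had 99 MEF peaks and Mycbp2, a ubiquitin ligase, had 74. Trrap, a scaffold of histone acetyltransferase complexes, had 60, and Hectd4, a HECT domain protein, had 52. Dock5, an activator of Rac, had 48. Itpr3 (an inositol trisphosphate receptor) had 35, Gcn1 (a ribosome-bound activator of the Gcn2 kinase) had 34, and the kinesin gene Kif1b also had 34. The strongest 8052 MEF peaks held 18, 17, 56, 23, 6, 22, 9 and 2 of these peaks, in the order named. Of the 8 genes, Syne2, Mycbp2, Trrap, Itpr3 and Kif1b had between 1 and 7 EPSC peaks, and Hectd4, Dock5 and Gcn1 had none. All but Gcn1 had wild-type MeTPeak peaks in the C57BL/6 stem cells, from 2 in Dock5 to 40 in Syne2. The absence of an E14 peak was thus not an absence from every stem cell list. The knockout list had fewer peaks than wild type in Syne2 (17), Mycbp2 (23 against 24), Trrap (10 against 12), Hectd4 (0 against 26) and Itpr3 (4 against 10). It had more in Dock5 (7) and Gcn1 (7 against 0), and Kif1b had 25 in each.

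Some genes carried dense peaks in both cell types. Dst (dystonin) had 63 E14 peaks and 85 MEF peaks, and its relative Macf1 had 57 and 83. Both encode spectraplakins, which join actin to microtubules. Mdn1, an ATPase of ribosome assembly, had 13 in E14 and 88 in MEF. Huwe1, a ubiquitin ligase, had 28 in E14 and 69 in MEF, and Usp34, a deubiquitinase, had 28 and 59. The order of Usp34 turned to 1 more in E14 when at least 50% of a peak had to lie in exon blocks. Ubr4 stood apart with 2 in E14 and 81 in MEF. Hspg2 (perlecan, a basement membrane proteoglycan) had 29 in E14 and 50 in MEF. In the lists of equal number by −log10 q, MEF kept 83 peaks in Dst, 78 in Macf1, 65 in Huwe1 and 46 in Hspg2. Ranking by the authors' fold in place of q turned the difference towards E14 for Dst, Macf1, Huwe1, Usp34, Ubr4 and Hspg2, so the order at equal numbers rests on the ranking.

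**Figure D2:**
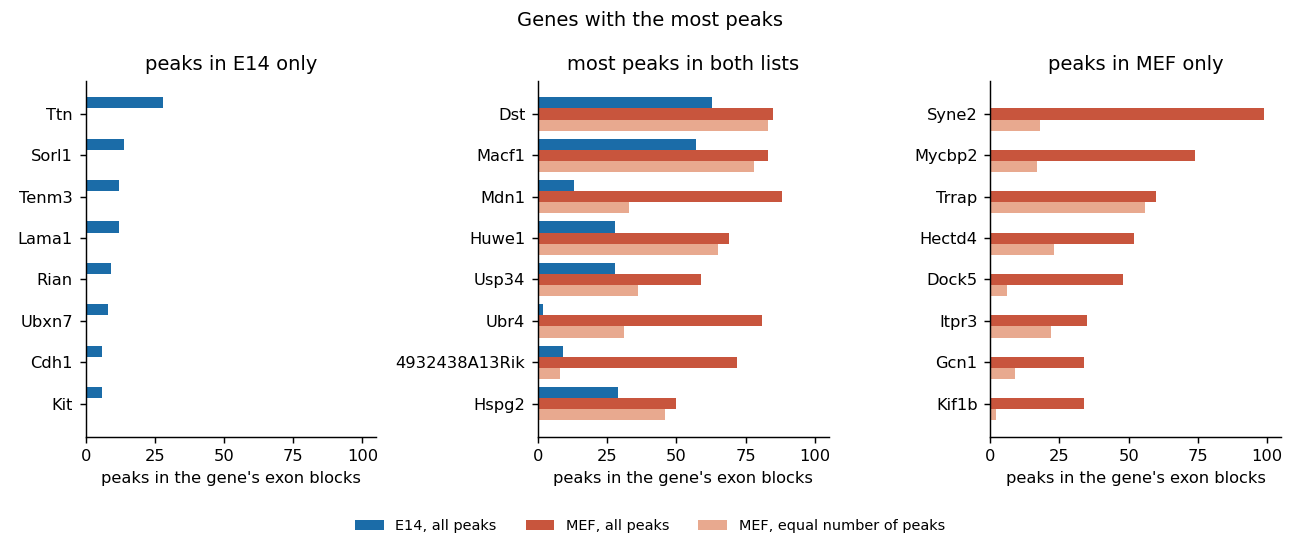
Peaks per gene (horizontal axes, number of peaks in the gene's exon blocks) for the 8 genes with the most peaks in E14 only, in both lists and in MEF only. Bars give E14 peaks, all MEF peaks and MEF peaks of the equal list; the E14-only genes reach 28 peaks (Ttn) and the MEF-only genes 99 (Syne2).

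At equal numbers, the genes of both lists that leaned most to E14 were led by Ktn1 (kinectin, a kinesin anchor) with 23 E14 peaks and 1 MEF peak. Rif1, a regulator of replication timing and of DNA repair, had 21 and 3. Epha4, an ephrin receptor, had 16 and 1. Nsd1, a histone H3 lysine methyltransferase, had 15 and 1, the acetyltransferase gene Kat6b 14 and 1, and the nuclear pore gene Tpr 14 and 2. The whole MEF list held from 9 peaks (Kat6b) to 30 (Tpr) in these 6 genes, most of them below the −log10 q at which the equal list was cut. Towards MEF the order was Birc6, an inhibitor of apoptosis, with 4 E14 peaks and 61 MEF peaks, Rnf213 with 8 and 54, Wdfy3 with 1 and 45, the endocytic receptor gene Lrp1 with 10 and 53, and Myof (myoferlin) with 2 and 40.

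The naive pluripotency genes had peaks mainly in E14. Peaks in E14 only were found in 15 of the 35 that could be named (42.9%, against 3.79% of all nameable genes), peaks in both lists in 6 and peaks in MEF only in 2. At equal numbers 18 were in E14 only (51.4%, against 11.6% of all nameable genes) and none in MEF only (against 5.45%). Nanog and Sox2, core transcription factors, had 1 E14 peak each and no MEF peak. Nanog's lay at mm9 chr6:122663930-122664222 with a fold of 3, and Sox2's at chr3:34550124-34550249 with a fold of 1.57. Esrrb had 2 and Tfcp2l1 had 5, and MEF had none in these. Tet1, a DNA demethylation enzyme abundant in stem cells, had 10 E14 peaks and 1 MEF peak. Tet2 had 9 and 5. Members with peaks in both lists included Klf4 with 3 in each, Klf5 with 2 in E14 and 4 in MEF, and Tbx3 with 5 and 8.

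The long noncoding RNAs that could be named had more peaks in E14 than in MEF. Only 19 of the 34 listed could be named, and an RNA without a block in the stem cell tables could not be counted. Of 19 nameable noncoding RNAs, 10 had a peak in E14 only (52.6%, against 3.79% of all nameable genes), 5 in both and none in MEF only, at 38 E14 peaks and 16 MEF peaks. Firre had 4 E14 peaks, Lncenc1 3 and Gas5 1, with none in MEF. Tug1 had 4 E14 peaks and 5 MEF peaks, and in both lists the peak of highest fold was the same interval, mm9 chr11:3540349-3543238, at folds of 27.7 in E14 and 15 in MEF. Neat1 had 3 and 4, and Malat1 had 1 in each. Of 54 nameable cytosolic ribosomal protein genes, 8 had a peak in E14 only (14.8%, against 3.79% of all nameable genes) and 1, Rpl10a, in both. The 16.7% with any E14 peak was below the 19% of all nameable genes, and the 1.85% with a MEF peak compares with 39.7%. At equal numbers 9 were in E14 only (16.7%, against 11.6%) and none had a MEF peak. Rpl3 had 3 E14 peaks, the strongest of 1372 bp at a fold of 12.6, and the other 8 had 1 each. The ribosomal protein genes had a median of 395 bp of listed exon, against 2037 bp for all nameable genes.

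Matrix genes were the reverse. Of 33 nameable genes for matrix proteins and enzymes other than collagens, 2 had a peak in E14 only (6.06%, against 3.79% of all nameable genes). Another 7 had one in both and 21 in MEF only (63.6%, against 24.6%). At equal numbers 3 were in E14 only (9.09%, against 11.6%) and 10 in MEF only (30.3%, against 5.45%). Vcan (versican, a large matrix proteoglycan) had 13 MEF peaks and no E14 peak, and the strongest, at mm9 chr13:89817591-89817848, had a fold of 30.8. Lamb1 had 27, Fbln2 15 and Fbn1 (fibrillin-1) 5, with none in E14. Fn1 (fibronectin) had 33 E14 peaks and 43 MEF peaks, an order that turned to 4 more in E14 when at least 50% of a peak had to lie in exon blocks, and also when peaks were ranked by fold. Lama1 with 12 E14 peaks and Lama5 with 3 were the 2 members in E14 only. Among 11 nameable collagen genes, 1 (Col18a1, with 5 E14 peaks) was in E14 only (9.09%, against 3.79% of all nameable genes). In MEF only there were 4 (36.4%, against 24.6%), Col5a1 with 15 peaks leading. At equal numbers 1 was in E14 only (9.09%, against 11.6%) and 2 were in MEF only (18.2%, against 5.45%). One listed block of Col5a1 is over 10 kb long, and with blocks of the wild-type MeTPeak list alone the collagen difference turned to 1 more gene in E14.

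Immediate early genes, which cells switch on within minutes of a stimulus, had peaks mainly in MEF. Of the 28 that could be named, none had a peak in E14 only and 3 had one in both. Peaks in MEF only were found in 17 (60.7%, against 24.6% of all nameable genes). At equal numbers the counts were none, 3 and 9, the last being 32.1%, against 5.45% of all nameable genes. Egr1 had 3 MEF peaks, Dusp1 4, Junb 2 and Jun 1, with no E14 peak in any. Fibroblast identity genes had none of 21 nameable members in E14 only and 10 in MEF only (47.6%, against 24.6% of all nameable genes). At equal numbers they had 2 (9.52%, against 11.6%) and 4 (19%, against 5.45%). Nfib had 1 E14 peak and 14 MEF peaks, Gli3 had none and 11, and the mesenchymal repressor gene Zeb1 had none and 9. At equal numbers MEF kept 2, 2 and 1 peaks in these. Tcf4 had 8 E14 peaks and 17 MEF peaks, and none of the 17 remained at equal numbers. The whole fibroblast identity list then held 10 E14 peaks and 10 MEF peaks. Twist1 had no peak in either list. TGF-beta and BMP signalling genes had 2 of 31 in E14 only (6.45%) and 16 in MEF only (51.6%), and the Hippo pathway list had none of 20 in E14 only and 10 in MEF only (50%), where all nameable genes had 3.79% and 24.6%. Equal numbers of peaks gave 4 (12.9%) and 6 (19.4%) for TGF-beta, which turned towards E14 with lists of equal covered length. For Hippo they gave 3 (15%) and 5 (25%), which turned towards E14 with ranking by fold. The p53 list had 2 of 28 members in E14 only (7.14%) and 9 in MEF only (32.1%). At equal numbers it had 6 (21.4%) and 4 (14.3%). All nameable genes turned the same way, to 11.6% in E14 only and 5.45% in MEF only.

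Of 40 nameable actin and adhesion genes, 1 had a peak in E14 only (2.5%), 21 in both lists (52.5%, against 15.2% of all nameable genes) and 11 in MEF only (27.5%, against 24.6%). At equal numbers 3 were in E14 only (7.5%, against 11.6% of all nameable genes) and 5 in MEF only (12.5%, against 5.45%). The difference in members with a peak then turned to 1 more in E14 with wild-type blocks alone, 6 more with ranking by fold and 2 more with equal covered length. Myh9, a nonmuscle myosin heavy chain, had 6 E14 peaks and 32 MEF peaks. Vcl (vinculin) had no E14 peak and 19 MEF peaks, and Tln1 (talin-1) had none and 18. With all peaks, epithelial adhesion genes had 5 of 29 in E14 only (17.2%, against 3.79% of all nameable genes). The 5 in MEF only were also 17.2%, against 24.6%. At equal numbers 6 were in E14 only (20.7%, against 11.6%) and 1 in MEF only (3.45%, against 5.45%). Celsr1, a planar polarity cadherin, had 10 E14 peaks and 1 MEF peak, and its E14 peak of highest fold, 240, lay at mm9 chr15:85729582-85731101. Fat1, a protocadherin, had 25 E14 peaks and 24 MEF peaks. Growth factor receptors and ligands had 5 of 34 in E14 only (14.7%, against 3.79% of all nameable genes) and 13 in MEF only (38.2%, against 24.6%), among them Met with 8 MEF peaks and Egfr with 10, and no E14 peak in either. Equal numbers of peaks gave 6 (17.6%, against 11.6%) and 9 (26.5%, against 5.45%). The difference in members with a peak then turned to 2 more in E14 with ranking by fold and with equal covered length.

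Chromatin genes mostly had peaks in both cell types. Of 65 nameable chromatin genes, 46 (70.8%, against 15.2% of all nameable genes) had a peak in both lists. Kmt2c, a histone methyltransferase, had 10 E14 peaks and 47 MEF peaks. Ncor1, a corepressor, had 11 and 35, and none of the 35 remained at equal numbers. Dnmt1, the maintenance DNA methyltransferase, had none in E14 and 27 in MEF. Of 25 genes of the m6A machinery, 12 were in both, 1 (the reader candidate Hnrnpa2b1, with 3 E14 peaks) in E14 only and 6 in MEF only (24%, against 24.6% of all nameable genes). At equal numbers 7 were in E14 only (28%, against 11.6% of all nameable genes) and 1 in MEF only (4%, against 5.45%). Of the writer complex, Virma had 2 E14 peaks and 21 MEF peaks, Zc3h13 had 7 and 14, and Wtap had 3 and 2. Rbm15b, a writer adaptor, had no E14 peak and 1 MEF peak, and the core writer genes Mettl3 and Mettl14 had no peak in either list. The readers Ythdf1 and Ythdf2 and the eraser Alkbh5 had 3, 5 and 4 MEF peaks and no E14 peak. None of these MEF peaks was in the equal list, and EPSC had 2, 1 and 2 peaks in the same genes. Cell cycle genes had 18 of 45 in both, 1 in E14 only (2.22%) and 10 in MEF only (22.2%), both shares near the 3.79% and 24.6% of all nameable genes. Among them Cenpe had 16 E14 peaks and 33 MEF peaks, and Top2a had 13 and 23. At equal numbers 10 of the 45 were in E14 only (22.2%) and 2 in MEF only (4.44%), against 11.6% and 5.45% of all nameable genes. Endothelial, blood and neural genes had 2 of 14, Nes and Pecam1, in E14 only at 1 peak each (14.3%, against 3.79%). None of the 14 had a MEF peak, against 39.7% of all nameable genes.

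**Figure D3:**
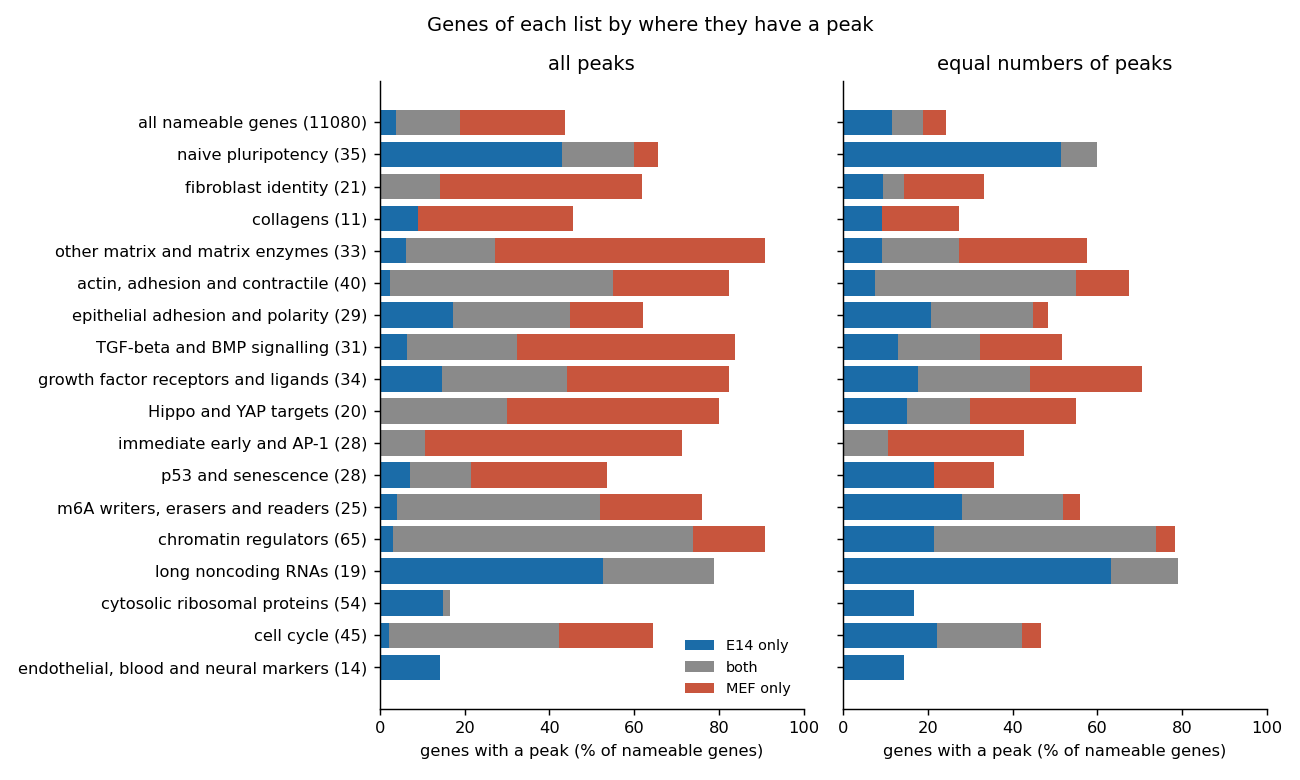
Share of the nameable genes of each list (horizontal axes, %; number of nameable genes in brackets) with a peak in E14 only, in both or in MEF only, for all peaks on the left and for equal numbers of peaks on the right. Naive pluripotency genes reach 42.9% in E14 only, and matrix genes 63.6% in MEF only with all peaks.

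The length of listed exon differed between the lists, from a median of 300 bp in collagens and 395 bp in ribosomal protein genes to 7745 bp in chromatin genes. RNA level in stem cells differed between them as well. The input of the C57BL/6 wild-type stem cells had a median of 28.6 RPM per kb (sequenced reads scaled to a common library total, per kb of region) over naive pluripotency genes, 1.1 over matrix genes, 2.15 over immediate early genes and 2 over all nameable genes. No RNA level of E14 or MEF was used here, and the part of RNA level in these counts was not tested.

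In each list, longer exons more often had a peak. A longer exon offers more bases for a peak to meet, so some such rise is built into the count. No share per kb of exon is given beside it. Whole internal exons were taken as blocks between the first and the last block of a listed region, 42657 in all, with a median of 125 bp. E14 had a peak in 6.78% of them, MEF in 46.4% and MEF at equal numbers in 14.2%. Among exons up to 100 bp the share was 2.54% in E14 (2.29 to 2.82%) and 29.9% in MEF (29.1 to 30.6%), and 5.79% in MEF at equal numbers. Over 1000 bp it was 50% in E14 (44.9 to 55.1%), 82.9% in MEF (78.7 to 86.4%) and 52.4% (47.3 to 57.5%) in MEF at equal numbers. At equal numbers, the MEF list thus had a higher share than the E14 list in each length class up to 1000 bp. The intervals did not meet in these classes and overlapped in exons over 1000 bp. They cover counting error over exons of 1 list per cell type, so they do not speak for a difference between cell types. In genes with a peak in both lists, MEF at equal numbers was again higher for exons up to 100 bp, at 11.6% against 5.73% in E14. For exons over 1000 bp the shares were 73.4% (67.5 to 78.6%) in E14 and 66.2% (60 to 72%) in MEF at equal numbers. The equal MEF list covered 5.24 Mb against 3.1 Mb for E14, with median peaks of 328 and 216 bp. Gene names were given to 82.7% of its peaks, against 65.9% in E14. How far these list differences bear on the shares was not tested at any exon length. Of the exons with an E14 peak, 82.2% also had a MEF peak, while 12% of those with a MEF peak also had an E14 peak. Exons with a peak in both lists had a median of 174 bp, E14-only exons one of 145 bp and MEF-only exons one of 138 bp.

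**Figure D4:**
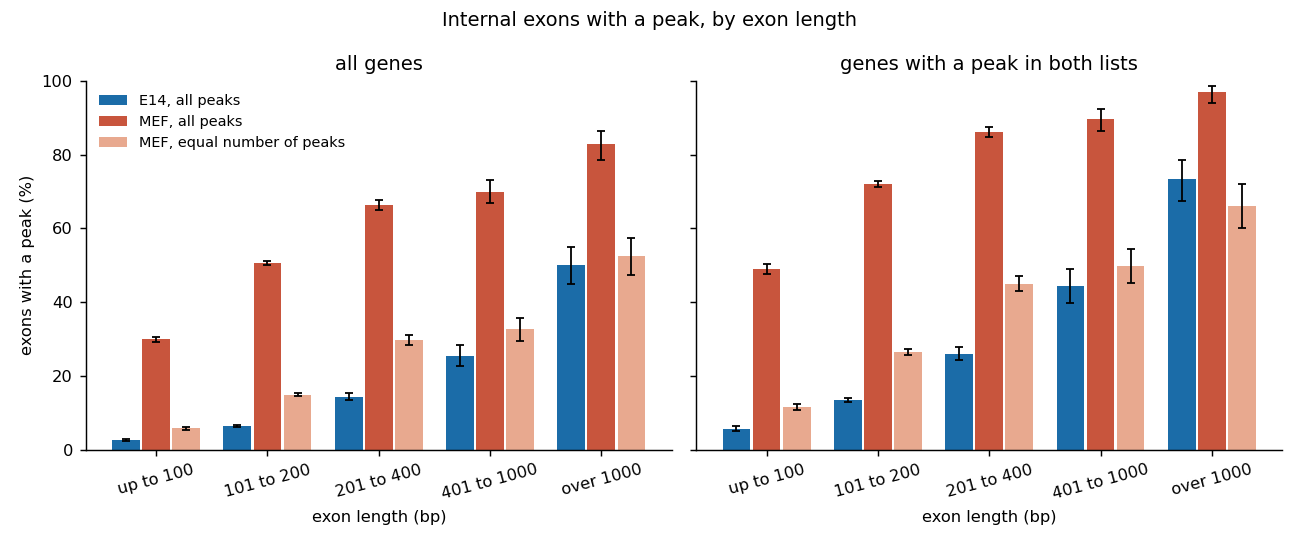
Share of internal exons with a peak (vertical axes, %) by exon length (horizontal axes, bp) for all genes and for genes with a peak in both lists, with Wilson 95% intervals. E14 shares run from 2.54% to 50% over all genes, and the MEF list of equal number exceeds E14 in exons up to 1000 bp over all genes.

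Along the genes, MEF summits lay nearer the 5′ end than E14 summits. Positions were taken along the listed exons of genes with at least 2 kb listed. The first 30% of that length held 27.3% of E14 summits (26 to 28.5%), 43.4% of MEF summits (42.8 to 44%) and 39.7% of MEF summits at equal numbers (38.5 to 40.9%). The last 30% held 27.5% in E14, 15.8% in MEF and 15.2% in MEF at equal numbers. Within genes with peaks in both lists of equal number, the first 30% held 26.7% of E14 summits (25.1 to 28.3%) and 39.1% of MEF summits of the equal list (37.7 to 40.5%), so the order was the same within one set of genes. The median position, where 0 is the 5′ end and 1 the 3′ end, was 0.503 in E14 and 0.353 in MEF.

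**Figure D5:**
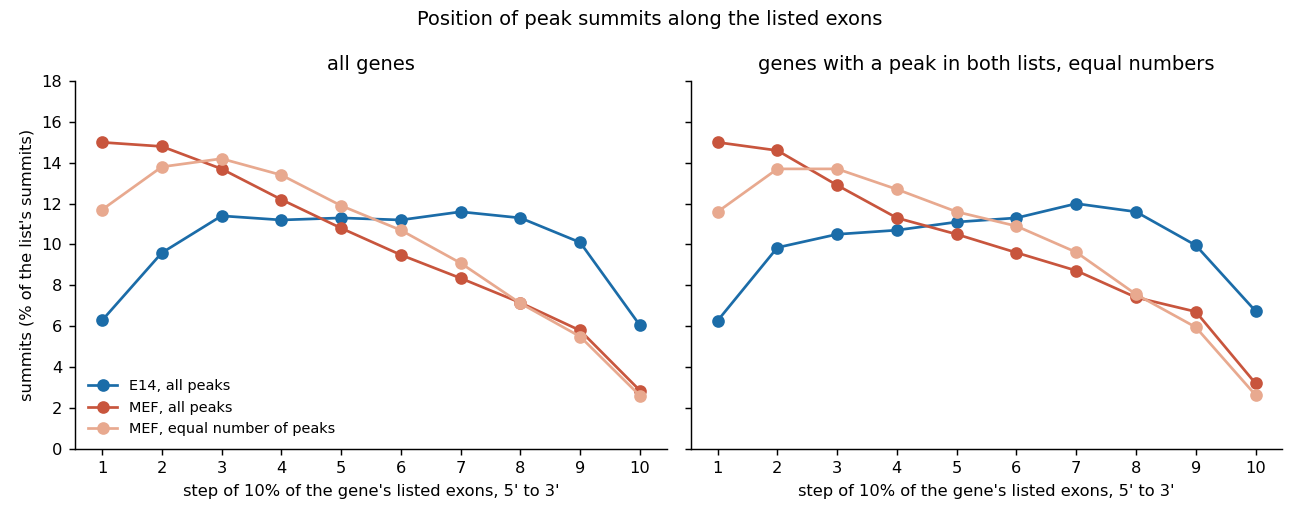
Share of peak summits (vertical axes, % of the list's summits) in 10 equal steps along the gene's listed exons from 5′ to 3′ (horizontal axes), for all genes and for genes with a peak in both lists of equal number. Over all genes, E14 summits hold 9.59% to 11.6% in each step but the first and the last, and MEF summits decline from 15% in the first step to 2.85% in the last.

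Other stem cell lists of the series had peaks more often in genes with an E14 peak than in MEF-only genes. An EPSC peak was present in 72.4% of E14-only genes (67.9 to 76.4%), 89.5% of genes with a peak in both, 30.8% of MEF-only genes (29.1 to 32.6%) and 6.09% of the remaining nameable genes. E14 at 25000 nuclei had a peak in 39.3%, 46.6%, 3.78% and 0.831% of the same groups. In E14 at 5000 the shares were 38.3%, 51.5%, 15.3% and 3.21%. These lists came from the same antibody and protocol as the E14 list. The wild-type C57BL/6 MeTPeak list, which also supplied exon blocks, had peaks in 83.3% of E14-only, 96% of shared and 74.8% of MEF-only genes, and in 29.3% of genes with neither. The Mettl3 knockout list, which supplied blocks too, had peaks in 72.6%, 89.5%, 54.3% and 21.5% of the same groups.

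Regions of the C57BL/6 comparison of wild-type and Mettl3 knockout cells lay under peaks of all classes. Of 33473 regions, 557 met an E14 peak and no MEF peak (E14-only regions), 2385 met peaks of both lists (shared regions) and 10905 met a MEF peak and no E14 peak (MEF-only regions). In the authors' deposited table the log2 change of m6A-CT over input, knockout over wild type, had a median of -1.15 in E14-only regions, -1.25 in shared regions, -1.27 in MEF-only regions and -1.43 in regions without a peak. It was below 0 in 95.9% (93.9 to 97.2%), 96.9%, 92.1% (91.6 to 92.6%) and 86.1% of them. The ratio of m6A-CT to input RPM in wild type had a median of 5.86 in E14-only, 7.58 in shared, 4.03 in MEF-only regions and 2.59 elsewhere. Region length differed as well, with medians of 1200, 950, 150 and 125 bp.

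Among peaks with no gene name that met no peak of the other list, 2107 were in E14 and 9525 in MEF. In E14 the 5 of highest −log10 q were short, from 113 to 204 bp, with folds of 3.19 to 4.58, the strongest at mm9 chr2:5300277-5300422. In MEF the strongest was mm9 chr6:29401324-29402448, of 1125 bp and fold 11.5, and the other 4 lay together at chr4:63660875-63679320 with folds of 7.86 to 17.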

How the data were processed

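Per the submitters' processing notes, the tools were Trim Galore, STAR 2.7.2 and MACS2. MACS2's version, settings and background, and the pooling of replicates, are not given in the sources used here. The deposited narrowPeak lists (mm9) hold the authors' fold enrichment, −log10 p and −log10 q, a score of 10 times −log10 q, and a summit offset, and every −log10 q is at least 10. The authors' MeTPeak tables also hold a p-value, a fold and log10 values. The authors' deposited exomePeak2 table holds RPM and a log2 change in pooled columns, 1 for each genotype and library kind, for which no count test is possible. All of its RPM values (100%) were whole reads within 0.05 reads, at 39.3 M reads for wild-type m6A-CT and 45.1 M for its input.

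Lists were compared in Python 3.11.15 with numpy 2.4.6 and pandas 2.3.3 at an overlap of 1 bp, without strand. A peak took the name of each gene whose exon blocks it met in the 3 stem cell tables. Of 11050 symbols in them, 138 were updated through the RefSeq table. The 217 regions listed for several genes were split where a part was named elsewhere. Equal lists took the top MEF peaks by −log10 q. RPM per kb left out regions with a block over 10 kb. Overlap and naming were tested on simulated peaks. Samples were grouped by their labels; no test was run, since each cell type has 1 list.

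Named genes were the 8 with the most peaks in E14 only, in MEF only and in both, the 8 that differed most to each side at equal numbers, up to 4 per list by highest fold, and 16 fixed genes; other list members are named to spell out counts and were chosen after their values were seen. The members and the 17 gene lists were chosen with earlier results of these data known. No genome of build mm9 was used here, so no sequence is shown.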

Additional observations from a re-analysis of the deposited data

How the results depend on the processing

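Each cell type has 1 peak list, so no replicate could be left out, and depth is unknown: a list can be short because few reads were sequenced. No paired analysis was possible because each cell type has 1 list and no test was run. With a −log10 q of at least 20 in both lists, 48.8% of E14 peaks met a MEF peak and 7.02% of MEF peaks met an E14 peak. The genes were then 268 in E14 only and 713 in both, and at equal numbers 21% and 19.8% of peaks overlapped, with 708 genes in E14 only and 273 in both. Without peaks of 100 bp, 59.7% of E14 peaks met a MEF peak. An overlap of 50% of both peaks gave 35.4% of E14 and 7.46% of MEF peaks, and 16.5% of each at equal numbers. Top peaks by fold gave 20.1% of E14 and 18% of MEF peaks. Equal covered length, chosen after seeing the data, left 4194 MEF peaks: 18.2% of E14 and 30.7% of MEF peaks then overlapped, with 529 genes in both and 291 in MEF only. The other counts of genes stayed within 1.5 times under the alternatives run for them, which for genes also were 50% of a peak in exon blocks, wild-type blocks alone, gene spans, and no blocks over 10 kb (also chosen after seeing the data).

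Some differences of E14 minus MEF changed sign, and the cause was not tested. With wild-type blocks alone, collagen members with a peak turned to 1 (with all peaks and at equal numbers) and actin members at equal numbers to 1. With 50% of a peak in blocks, Fn1 turned to 4 in both settings, and Usp34 to 1 with all peaks and 7 at equal numbers. Ranking by fold turned actin members to 6, growth factor receptors to 2, Hippo to 2, Huwe1 to 20, Dst to 8, Macf1 to 24, Usp34 to 3, Ubr4 to 2, 4932438A13Rik to -25, Hspg2 to 25 and Fn1 to 27. At a −log10 q of at least 20, Mdn1 turned to 2 and Usp34 to 5 at equal numbers. Equal covered length turned actin, TGF-beta and growth factor receptor members to 2 each, Mdn1 to 9 and Usp34 to 18. These are the 25 sign changes among 924 values of lists and named genes, of which 692 stayed within 1.5 times.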

Other observations

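Chromosome 5 held 426 E14 peaks (5.29%, 95% Wilson interval 4.82 to 5.8%), against 3367 MEF peaks (8.81%, 8.53 to 9.1%) and 889 peaks (11%, 10.4 to 11.7%) of the MEF list of equal number. In EPSC and in E14 at 25000 and 5000 nuclei the shares were 5.57%, 5.68% and 6.35%. Trrap, Slit2, Hectd4 and Gcn1, with 60, 32, 52 and 34 MEF peaks and no E14 peak, lie on it. Slit2, a secreted guidance protein, had all 32 of its MEF peaks among the strongest 8052. An E14 peak was present in 16% of the nameable genes of chromosome 5 and a peak of the equal MEF list in 17.6%, against 19% and 12.8% of all nameable genes, and these genes held 252 E14 peaks and 714 peaks of the equal MEF list. Chromosome 18 held 3.28% of E14 peaks (2.91 to 3.69%) and 1.43% (1.19 to 1.71%) of the equal MEF list. Of its nameable genes, 29.2% had an E14 peak and 19.5% a peak of the equal MEF list, where a peak in exons of several genes counts for each. No copy number, karyotype or RNA level of E14 or MEF was used, and the part of any of them was not tested.

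The strongest E14 values were concentrated in few peaks. A −log10 q of at least 1000 was reached by 207 E14 peaks (2.57%) and 331 MEF peaks (0.866%), although the median −log10 q was 18 in E14 and 27 in MEF. Among unnamed peaks that met no peak of the other list, the highest −log10 q in E14, 129280, had a fold of 4.12 over 146 bp. In MEF the highest of these was 6826, at a fold of 11.5 over 1125 bp. Fold and −log10 q thus ranked peaks differently, which is why the ranking by fold was set beside the ranking by q.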
